A study of Arabidopsis thaliana with 4 samples.

Results

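The 10 genes described here encode the superoxide dismutases and catalases of Arabidopsis thaliana and were taken by their locus identifiers from tables of 31319 loci. They are 3 copper/zinc superoxide dismutases (CSD1, CSD2 and CSD3), 3 iron superoxide dismutases (FSD1, FSD2 and FSD3), the manganese enzyme MSD1 and the catalases CAT1, CAT2 and CAT3. Leaf RNA was sequenced from myc2 plants at R3, myc2 plants in air, wild-type (WT) plants at R3 and WT plants in air, all Col-0, with 1 library per group. The myc2 plants carry the myc2-2 allele of MYC2, a transcription factor of jasmonate signalling, and 6 plants aged 4 weeks were pooled into each leaf sample. R3 is labelled as 3 h after submergence and air as before it, whereas the protocol gives a dark submergence of 24 h with sampling at 0 and 24 h of reoxygenation. R3 therefore differs from air in darkness, submergence, reoxygenation after it and harvest time at once, and these cannot be told apart. No group has a second library, so no test was possible and the differences below are unreplicated.

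Superoxide dismutases turn superoxide into hydrogen peroxide and oxygen, and catalases break hydrogen peroxide down to water and oxygen. In Arabidopsis leaves the enzymes are divided by compartment, with CSD1 in the cytosol, CSD2 and the iron enzymes in plastids, CSD3 and the catalases in peroxisomes and MSD1 in mitochondria. FSD1 has also been found outside plastids. In Arabidopsis, messenger RNAs of CSD1 and CSD2, of the copper chaperone CCS that loads them and of the cytochrome oxidase subunit gene COX5B-1 are known targets of the microRNA miR398. When copper is short, the factor SPL7 raises miR398, FSD1 and the copper transporter COPT2, so that iron enzyme replaces copper enzyme.

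The miR398 sequences are shown because CSD1 and CSD2, both known targets, stood on opposite sides of their air levels at R3. They are read from the RefSeq annotation of TAIR10.1, with the seed (bases 2 to 8) in capitals. The forms differ only in the last base and share 1 seed. The loci lie at chr2:1041012-1041032 (miR398a), chr5:4691107-4691127 (miR398b) and chr5:4694778-4694798 (miR398c), all on the plus strand.
miR398a: uGUGUUCUcaggucaccccuu
miR398b: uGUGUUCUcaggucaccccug
miR398c: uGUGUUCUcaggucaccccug

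The best matching windows in the 4 known targets follow, with bases in Watson-Crick pairs with the microRNA in capitals. At most 1 unpaired extra base was allowed on either strand. The CSD1 window crosses an intron in the 5′ UTR (chr1:2827177-2827685, plus strand). The CSD2 window is coding (chr2:12015572-12015591, plus strand), as is that of CCS (chr1:4267521-4267541, minus strand). The COX5B-1 window lies in the annotated 5′ UTR (chr3:5299204-5299225, plus strand).
CSD1: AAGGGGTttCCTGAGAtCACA
CSD2: tgcGGGTGACCTGgGAAACA
CCS: AttGGGaGACCTGgGAACACt
COX5B-1: AAGGtGTGACCTGAGAAtCACA
These windows hold 18, 16, 16 and 20 such pairs, in the order printed, with mismatch penalties of 5, 5, 5 and 3 (a mismatch counts 1, a G:U pair 0.5, both doubled at microRNA bases 2 to 13, and an extra base 2). In the other 8 members the lowest penalty lay between 7.5 in FSD2 and 10 in MSD1 and CAT1. A match is a description of letters only. The miR398a, miR398b and miR398c loci are not among the 31319 loci with values, so levels of the microRNAs are not given.

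The 4 libraries held an estimated 22300000 to 30400000 fragments. Values are RPKM, read counts scaled by gene length and by library size, so levels can be compared between genes. MYC2 was at 34.9 RPKM in myc2 R3, 14.2 in myc2 air, 91.7 in WT R3 and 45.9 in WT air, so transcript was still counted in the mutant. All 5 leaf markers were above 1 RPKM in every library, and their summed level was 4324 in myc2 R3, 23268 in myc2 air, 4264 in WT R3 and 29733 in WT air. The 4 seed markers summed to at most 0.411 RPKM. Flower markers (4 genes) summed to 20.1, 8.04, 12.02 and 2.82 and root markers (3 genes) to 11.7, 6.54, 62.9 and 2.94 in the same order, the root sum being almost all PYK10, while PHT1;2 was listed at 0 throughout. AT2G44790, a further locus on the root list that the annotation names UCC2, a uclacyanin gene, was at 303, 2.55, 196 and 0.61 RPKM and was left out of that sum. The part of other organs in the values below was not tested.

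Log2 ratios below are of RPKM + 1, which understates differences of low genes. Genes averaging 1 RPKM or more over the libraries of a comparison entered it, and a gene is counted where it is at least 2-fold apart on that scale. All 10 members passed. The median ratio of all genes was 0.30 in myc2 (R3 over air), 0.57 in WT (R3 over air), 0.04 for myc2 over WT at R3 and 0.22 in air. Differences from that median are given as relative log2 ratios. In bulk leaf RNA, fewer cells of a type and less RNA per cell cannot be told apart.

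At R3, CSD1 was higher than in air in both genotypes and the other 9 members were lower. In myc2, 4 of the 10 were at least 2-fold lower, against 11.5% of all genes, and 0 were 2-fold higher, against 23.5%. In WT, 5 of the 10 were at least 2-fold lower, against 10.1% of all genes, and 1 was higher, against 31.3%. The median of the 10 was −0.68 in myc2 and −0.87 in WT, or −0.99 and −1.44 relative to all genes. After the libraries were rescaled by the median of ratios, 5 members were lower in myc2, with 15.9% of all genes lower and 17.1% higher. In WT that scaling gave 8 lower and 0 higher, with 17.1% of all genes lower and 17.3% higher.

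**Figure D1:**
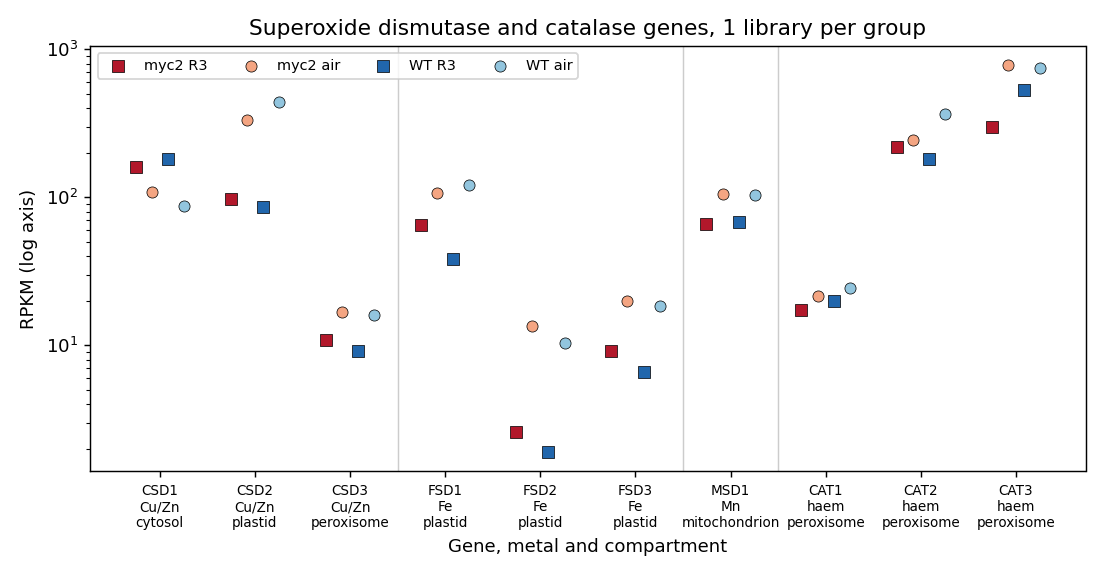
RPKM (log axis) of the 10 genes in each of the 4 libraries, grouped by metal and enzyme, with squares for R3 and circles for air. CSD1 is the gene whose squares lie above its circles in both genotypes, and FSD2 reaches the lowest values, 2.61 RPKM in myc2 R3 and 1.90 in WT R3.

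Transcript of the cytosolic copper/zinc enzyme was higher at R3 and that of the plastid one lower. CSD1 (AT1G08830, chr1:2827060-2829315, plus strand) had 161 RPKM in myc2 R3 and 109 in myc2 air, and 181 in WT R3 and 87.8 in WT air. CSD2 (AT2G28190, chr2:12014412-12016569, plus strand) had 97.1 in myc2 R3 and 332 in myc2 air, and 86.3 in WT R3 and 443 in WT air. Thus both R3 libraries were above both air libraries for CSD1 and below both for CSD2. The log2 ratio of R3 to air for CSD1 was 0.56 in myc2 and 1.04 in WT, and for CSD2 it was −1.76 and −2.34. Relative to the median of all genes, CSD1 was at 0.25 and 0.47 and CSD2 at −2.07 and −2.91. CSD1 lay above 61.4% of all genes in myc2 and 70.1% in WT, so its ratio was not unusual, and CSD2 above 4.31% and 2.15%. The 95% counting interval of the WT ratio was 0.96 to 1.11 for CSD1 and −2.41 to −2.28 for CSD2, which covers counting error only.

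Within a library the ratio of CSD2 to CSD1 does not depend on how that library was scaled. It was 0.602 in myc2 R3 and 3.04 in myc2 air, and 0.476 in WT R3 and 5.04 in WT air. CSD2 was thus the more abundant transcript in both air libraries and the less abundant in both R3 libraries. A gene on the opposite strand overlaps CSD1 by 211 bases, of which 41 are exonic in both, and stood at 0.651 to 0.876 RPKM.

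CSD3 (AT5G18100, chr5:5987187-5988885, plus strand), the peroxisomal enzyme, was the lowest of the copper/zinc group. It had 10.9 RPKM in myc2 R3 and 16.8 in myc2 air, and 9.20 in WT R3 and 16.0 in WT air. Both R3 libraries were below both air libraries, with log2 ratios of −0.58 in myc2 and −0.74 in WT. Its last 142 bases overlap NCBP (AT5G18110) on the opposite strand, which had 44.2, 19.5, 40.9 and 16.6 RPKM in myc2 R3, myc2 air, WT R3 and WT air. The sources used here do not state whether strand was used, so CSD3 is uncertain.

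All 3 iron enzymes were lower at R3. FSD1 (AT4G25100, chr4:12884300-12887011, minus strand), the main iron enzyme, had 65.1 RPKM in myc2 R3 and 108 in myc2 air, and 38.3 in WT R3 and 121 in WT air. Its log2 ratio was −0.72 in myc2 and −1.64 in WT. The myc2 air library lay below the WT air library, with a log2 ratio of −0.17 (counting interval −0.22 to −0.11). The myc2 R3 library lay above the WT R3 library, with a log2 ratio of 0.75 (counting interval 0.66 to 0.84).

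FSD2 and FSD3 form a pair that binds plastid nucleoids, and both proteins belong to the set associated with the plastid-encoded RNA polymerase. FSD2 (AT5G51100, chr5:20773235-20775739, minus strand) had 2.61 RPKM in myc2 R3 and 13.5 in myc2 air, and 1.90 in WT R3 and 10.4 in WT air. The R3 values rest on an estimated 90 and 82 fragments, so counting error alone was 10.6% and 11.1%. FSD3 (AT5G23310, chr5:7850444-7852534, plus strand) had 9.14 in myc2 R3 and 19.9 in myc2 air, and 6.64 in WT R3 and 18.4 in WT air. For both genes the R3 libraries were below both air libraries. The log2 ratios were −2.01 in myc2 and −1.97 in WT for FSD2, and −1.04 and −1.34 for FSD3.

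MSD1 (AT3G10920, chr3:3417940-3419892, plus strand), the mitochondrial manganese enzyme, differed least between genotypes in the values as deposited. It had 66.4 RPKM in myc2 R3 and 105 in myc2 air, and 68.2 in WT R3 and 104 in WT air. The log2 ratio of R3 to air was −0.65 in myc2 and −0.61 in WT, and the ratio of myc2 to WT was −0.04 at R3 and 0.01 in air, with 95% counting intervals that include 0. In air that sign turned under 2 rescalings. The MSD1 ratio in air was −0.29 with the median of ratios, where CSD1 was at 0.022. At R3 it was −0.18 with equal sums, where CSD2 was at 0.025, so the ranking of MSD1 depends on scaling.

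**Figure D2:**
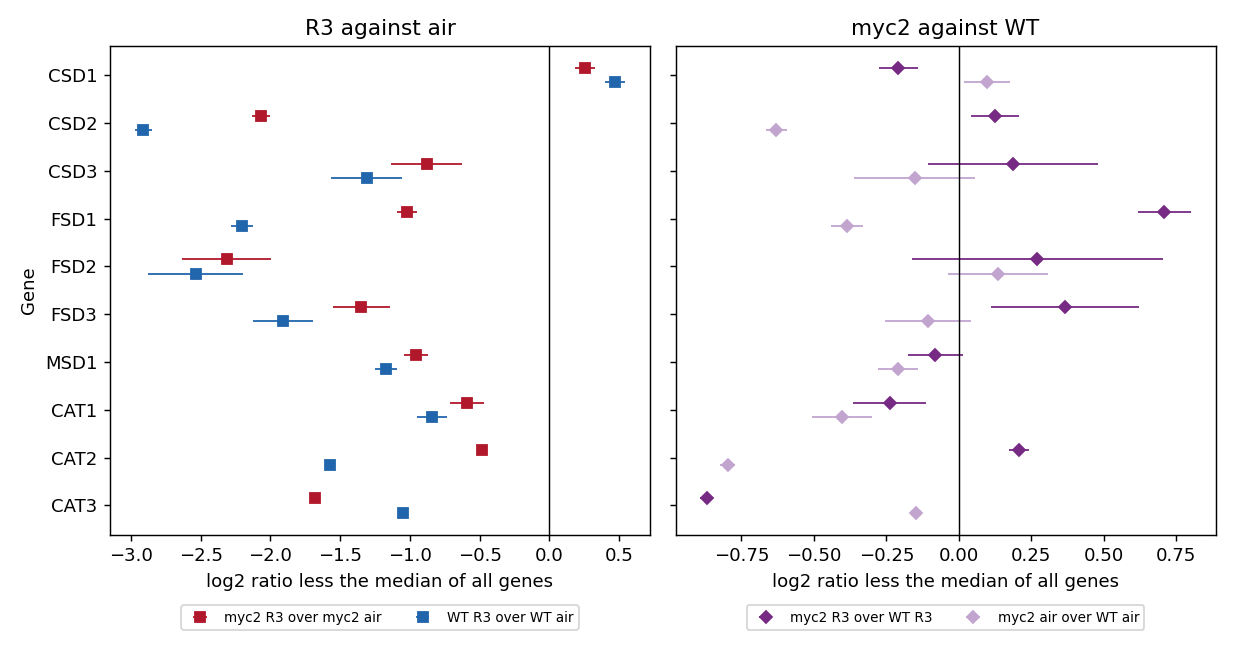
Log2 ratios of RPKM + 1 for the 10 genes, less the median of all genes, for R3 over air (left) and myc2 over WT (right), with bars for the 95% counting interval, which covers no difference between plants. On the left CSD1 is the gene to the right of 0, and on the right CAT3 at R3 and CAT2 in air lie farthest below 0, at −0.87 and −0.80.

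CAT3 was the most abundant of the 10 transcripts in every library. CAT3 (AT1G20620, chr1:7142972-7146540, plus strand) had 299.7 RPKM in myc2 R3 and 781 in myc2 air, and 533 in WT R3 and 745 in WT air. CAT2 (AT4G35090, chr4:16700312-16703504, minus strand), the main catalase of photosynthetic leaf cells, had 217 in myc2 R3 and 246 in myc2 air, and 183 in WT R3 and 368 in WT air. CAT1 (AT1G20630, chr1:7146636-7150180, plus strand) stood far below both, at 17.4 in myc2 R3 and 21.4 in myc2 air, and 20.1 in WT R3 and 24.5 in WT air. The 3 genes were lower at R3 in both genotypes, but the gene with the largest difference was not the same one. CAT3 had a log2 ratio of −1.38 in myc2 and −0.48 in WT, CAT2 had −0.18 and −1.01, and CAT1 had −0.29 and −0.28.

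The ratio of CAT3 to CAT2 within a library, which scaling does not touch, was 1.38 in myc2 R3 and 3.18 in myc2 air, and 2.91 in WT R3 and 2.02 in WT air. It was thus lower at R3 than in air in myc2 and higher at R3 than in air in WT. The 95% counting intervals of the 4 ratios did not overlap, the nearest being 2.86 to 2.97 in WT R3 and 3.13 to 3.23 in myc2 air. CAT3 and CAT1 are neighbours on chromosome 1, with 95 bases between them on the same strand, and shared no 50-base word. CAT2 shared 1.64% of its 50-base words with AT4G35080, which overlaps its end on the opposite strand and had 9.45 to 28.7 RPKM.

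Summed over the 7 superoxide dismutase genes, transcript amounted to 413 RPKM in myc2 R3 and 704 in myc2 air, and to 392 in WT R3 and 801 in WT air. The sum was thus 1.71-fold lower at R3 in myc2 and 2.04-fold lower in WT. The share of copper/zinc enzymes in it was 65.3%, 65.1%, 70.6% and 68.3% in the same order of libraries. It thus ranged over few percentage points, whereas the shares of CSD1 and CSD2 did not. CSD1 made up 39.1% of the sum in myc2 R3 and 15.5% in myc2 air, and 46.3% in WT R3 and 11.0% in WT air. CSD2 made up 23.5% in myc2 R3 and 47.2% in myc2 air, and 22.04% in WT R3 and 55.3% in WT air. The 4 plastid genes together held 42.2% in myc2 R3 and 67.2% in myc2 air, and 34.0% in WT R3 and 74.0% in WT air. Iron enzymes held 18.6% in myc2 R3 and 20.05% in myc2 air, and 11.9% in WT R3 and 18.7% in WT air. The approximate 95% Wilson intervals in myc2 were 17.9% to 19.4% and 19.5% to 20.6%. Weighted by annotated exon length, as estimated fragments, the iron share was 26.5% in myc2 R3 and 27.2% in myc2 air. In WT it was 17.7% at R3 and 25.4% in air. Fragments were not counted directly, and these lengths need not be those behind the deposited values.

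Catalase transcript summed to 535 RPKM in myc2 R3 and 1049 in myc2 air, and to 736 in WT R3 and 1138 in WT air. The log2 ratio of the sums was −0.97 in myc2 and −0.63 in WT. The CAT3 share of this sum was 56.1% in myc2 R3 and 74.5% in myc2 air, and 72.4% in WT R3 and 65.5% in WT air. The CAT2 share was 40.7% in myc2 R3 and 23.4% in myc2 air, and 24.9% in WT R3 and 32.4% in WT air.

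**Figure D3:**
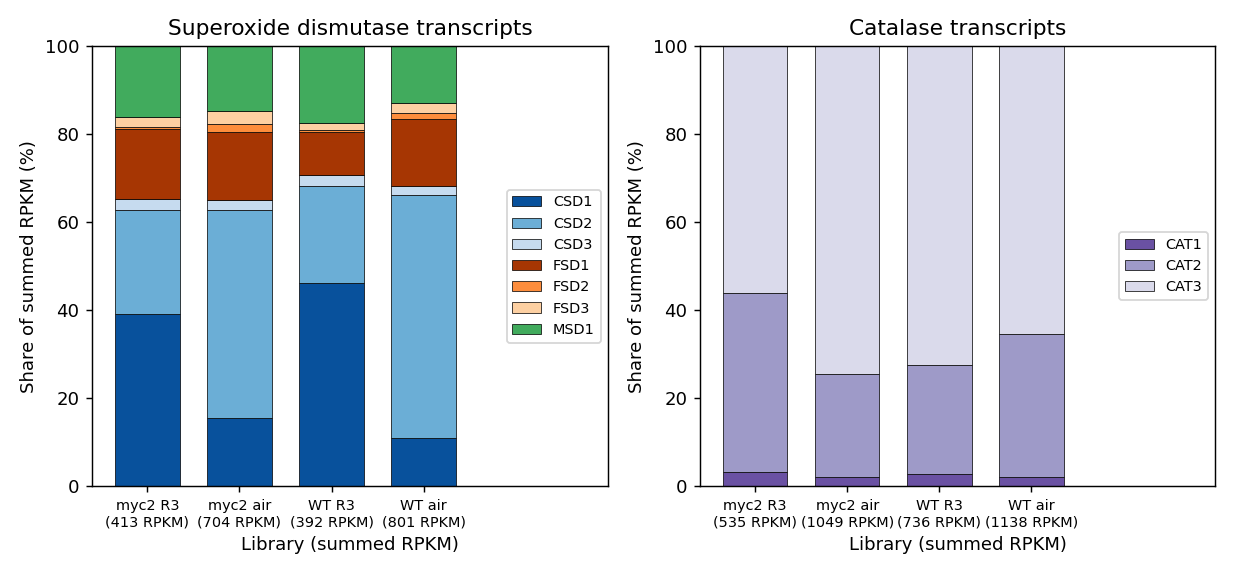
Share of the summed RPKM of each enzyme class held by each gene, by library, with the sum in RPKM under each bar. At R3 the CSD1 portion is larger and the CSD2 portion smaller in both genotypes, and the CAT3 portion is smallest in myc2 R3, at 56.1%.

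Among the members, CAT3 was the highest in all libraries and FSD2 the lowest. CSD2 came next after CAT3 in both air libraries and CAT2 in both R3 libraries. Neighbours that overlapped within their 95% counting intervals were MSD1 and FSD1 as well as CSD3 and FSD3 in myc2 R3. In myc2 air they were CSD1, FSD1 and MSD1, and also CAT1, FSD3 and CSD3, each with the next. In WT R3 they were CAT2 and CSD1, and in WT air FSD3 and CSD3.

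Between genotypes, 0 members were 2-fold apart at R3 or in air. Of all genes, 1.92% were at least 2-fold higher and 1.6% lower in myc2 at R3, and 2.47% were higher and 0.343% lower in air. The members with ratios of myc2 to WT farthest from 0 at R3 were CAT3 at −0.83 and FSD1 at 0.75. In air, CAT2 at −0.58 and CSD2 at −0.41 were farthest below 0. CAT2 in air lay above 1.32% of all genes and CAT3 at R3 above 2.33%, while FSD1 at R3 lay above 96.0%. In air the ratios of CSD3, FSD3, MSD1 and CAT3, all between 0.01 and 0.11, turned below 0 under at least 1 rescaling. Of the genes past 2-fold, 54.5% were higher in myc2 at R3 (39.9% with equal sums) and 87.8% in air (62.9% with the median of ratios).

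The response of myc2 less that of WT was also under 2-fold for all 10, where 1.51% of all genes were at least 2-fold higher and 5.2% lower. The higher genes were 22.4% of those past 2-fold, 48.7% with the median of ratios and 12.1% with equal sums. The difference was 0.92 for FSD1, 0.83 for CAT2, 0.58 for CSD2, −0.48 for CSD1 and −0.90 for CAT3. The other 5 lay between −0.05 and 0.30. The median of all genes was −0.16. FSD1, CAT2 and CSD2 lay above 98.0%, 97.5% and 94.5% of all genes, CSD1 above 23.5% and CAT3 above 6.94%. With the median of ratios FSD1 reached 1.20 and CAT2 1.11, where 2.84% of all genes were at least 2-fold higher. With equal sums CAT3 reached −1.07, where 9.57% were lower.

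Genes that serve the superoxide dismutases differed in direction at R3. CCS, the copper chaperone, had 66.2 RPKM in myc2 R3 and 80.0 in myc2 air, and 55.8 in WT R3 and 101 in WT air. COX5B-1, the further miR398 target, had 40.5 in myc2 R3 and 33.0 in myc2 air, and 36.3 in WT R3 and 28.7 in WT air. Of the 4 known target transcripts, CSD1 and COX5B-1 were therefore higher at R3 and CSD2 and CCS lower, in both genotypes. Relative to the median of all genes COX5B-1 was at −0.02 in myc2 and −0.24 in WT, so its direction depends on scaling. The CSD1 ratio stayed above 0 under all 3 rescalings, at 0.23 in myc2 and 0.43 in WT with the median of ratios. The plastid chaperonin gene CPN20, whose protein activates iron superoxide dismutase, had 198 RPKM in myc2 R3 and 257 in myc2 air, and 217 in WT R3 and 247 in WT air. MTM1, linked to the activation of MSD1, had 13.7 in myc2 R3 and 2.51 in myc2 air, and 15.3 in WT R3 and 2.72 in WT air. MSD2, a further manganese enzyme, was listed at 0 except for 0.0215 RPKM in WT R3. Of the 3 genes of this list past the filter, MTM1 was 2-fold or more higher in both genotypes and 0 were lower. Of all genes, 23.5% were higher and 11.5% lower in myc2, and 31.3% were higher and 10.1% lower in WT. These counts are thus near the background. With the median of ratios, and with the sum without the 50 highest genes, 1 was lower in WT, against 17.1% and 12.7% of all genes.

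In the copper list, 12 of the 17 loci with values passed the filter. In myc2, 2 were 2-fold or more higher than in air and 5 lower, and in WT 3 were higher and 4 lower. The shares of all genes were 23.5% higher and 11.5% lower in myc2, and 31.3% higher and 10.1% lower in WT. The higher counts were thus not above the background. After rescaling by the median of ratios, 1 was higher and 6 lower in WT, with 17.3% of all genes higher and 17.1% lower. The transporter gene COPT2 had 2.47 RPKM in myc2 R3 and 11.7 in myc2 air, and 1.47 in WT R3 and 12.7 in WT air. SPL7 had 9.32 in myc2 R3 and 5.12 in myc2 air, and 9.34 in WT R3 and 3.55 in WT air. Plastocyanin, the copper protein of photosynthetic electron transport, had the lowest ratios through PETE2, with 749.9 in myc2 R3 and 3763 in myc2 air, and 664 in WT R3 and 4789 in WT air. The highest ratio in myc2 was that of ATX1, a copper chaperone gene, at 302 RPKM in myc2 R3 and 101 in myc2 air. In WT it was that of the plantacyanin gene ARPN, at 24.4 RPKM in WT R3 and 1.63 in WT air.

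The other 10 proteins of the plastid RNA polymerase set gave the list nearest in kind to FSD2 and FSD3. Of these genes, 7 of 10 were at least 2-fold lower at R3 in myc2 and 6 of 10 in WT, against 11.5% and 10.1% of all genes, and 0 were higher. The WT count was 3 with a pseudocount of 5, against 6.57% of all genes. Both counts were 9 with the median of ratios, against 15.9% of all genes in myc2 and 17.1% in WT. Their median log2 ratio was −1.26 in myc2 and −1.10 in WT, or −1.56 and −1.67 relative to all genes. PAP12 (PTAC7) was lowest, with 18.2 RPKM in myc2 R3 and 98.0 in myc2 air, and 16.5 in WT R3 and 105 in WT air. PAP2 was nearest to 0, at −0.47 in myc2 and −0.30 in WT. All 5 leaf markers were likewise at least 2-fold lower, with relative medians of −2.57 in myc2 and −3.12 in WT, and their part in these values was not tested.

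Genes of catalase partner proteins followed a mixed pattern. NCA1, a chaperone that catalase activity requires, had 27.5 RPKM in myc2 R3 and 30.8 in myc2 air, and 27.7 in WT R3 and 30.9 in WT air. LSD1, a zinc finger protein that binds catalases, had 18.5 in myc2 R3 and 9.16 in myc2 air, and 13.6 in WT R3 and 9.25 in WT air. In this list of 6, 0 genes in myc2 and 1 in WT, the kinase gene CPK8, exceeded air by 2-fold or more, against 23.5% and 31.3% of all genes, and 0 were lower in either. With the median of ratios the WT count was 0, against 17.3% of all genes. With a pseudocount of 0.1 it was 2 in each genotype, where 26.9% of all genes were higher in myc2 and 36.6% in WT. It was also 2 in each with equal sums, where the shares were 26.2% and 41.8%, so these counts are near the background.

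Photorespiration makes hydrogen peroxide in leaf peroxisomes through glycolate oxidase. GOX1 had 157 RPKM in myc2 R3 and 482 in myc2 air, and 147 in WT R3 and 731 in WT air. GOX2 had 132 in myc2 R3 and 279 in myc2 air, and 109 in WT R3 and 381 in WT air. Of the 8 genes in this list past the filter, 5 were at least 2-fold lower in myc2 and 6 in WT, against 11.5% and 10.1% of all genes. GOX3, at most 5.69 RPKM in any library, was higher in both, against 23.5% and 31.3% of all genes. It was no longer past 2-fold in WT with a pseudocount of 5, and the filter at 5 RPKM left it out. The median ratio was −1.16 in myc2 and −1.58 in WT. In air, GOX1 had the lowest log2 ratio of myc2 to WT among the genes of this list past the filter, −0.60, and CAT2 had −0.58. The median was −0.43 for the list and −0.40 for the leaf markers, while HAOX1 and HAOX2 went the other way, at 0.26 and 0.25. At R3, GOX1 stood at 0.09 and CAT2 at 0.25, with medians of 0.24 for the list and −0.01 for the leaf markers. PGLP1 shared 91.2% of its 50-base words with AT5G36790, so its values, up to 1.13 RPKM, are uncertain.

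CAT2 and CAT3 are known in Arabidopsis to follow the circadian clock at opposite times of day, so clock genes are given beside them. CCA1, a morning factor, had 24.6 RPKM in myc2 R3 and 14.6 in myc2 air, and 18.1 in WT R3 and 10.9 in WT air. TOC1, an evening factor, had 21.1 in myc2 R3 and 23.1 in myc2 air, and 20.2 in WT R3 and 27.0 in WT air. Of 10 clock genes, 1 in myc2 was higher by 2-fold or more and 0 lower, and in WT 1 was higher and 1 lower. Of all genes, 23.5% were higher and 11.5% lower in myc2, and 31.3% were higher and 10.1% lower in WT, so these counts did not exceed the background. With the median of ratios 0 were higher in either genotype, and 1 was lower in myc2 and 3 in WT. Of all genes, 17.1% were then higher and 15.9% lower in myc2, and 17.3% higher and 17.1% lower in WT. With a pseudocount of 5, 0 were higher in either and 0 lower in WT. The shares of all genes were then 14.7% higher in myc2, 18.3% higher in WT and 6.57% lower in WT. PRR9 had the highest ratio in myc2 at 1.21 and GI in WT at 1.01, and PRR5 the lowest at −0.94 in myc2 and −1.02 in WT. The part of the time of harvest in the catalase values was not tested.

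**Figure D4:**
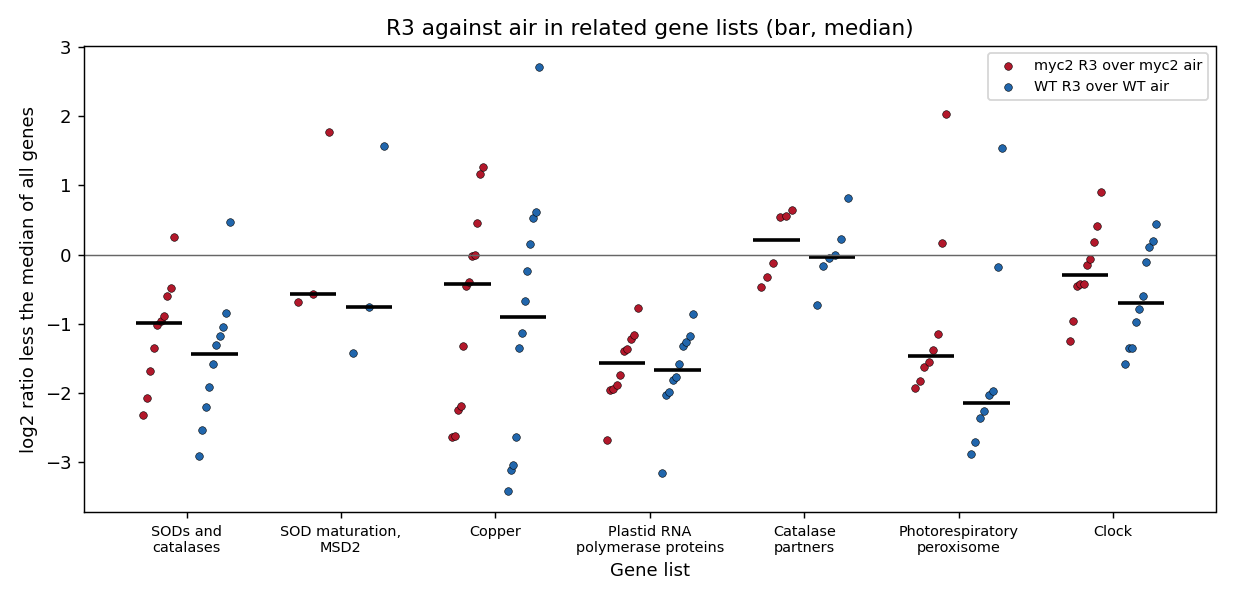
Log2 ratio of RPKM + 1 for R3 over air, less the median of all genes, for the 10 genes and 6 related lists, with 1 point per gene past the filter and a bar at the median. The medians of the 10 genes lie at −0.99 in myc2 and −1.44 in WT, and those of the plastid RNA polymerase proteins at −1.56 and −1.67.

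Promoters were read as the 250 bases before each annotated gene start in TAIR10.1 and searched on both strands. The G-box CACGTG, which MYC2 can bind, was found in 0 of the 10 members, against 6.49% of 27443 promoters of protein-coding genes. The copper response core GTAC was in 4 of the 10 (CSD1, CSD3, FSD1 and CAT2), against 34.3%. The evening element AAATATCT, known from evening-phased genes, was in CAT3 alone, 78 bases before the start, against 4.79%. The CAT3 promoter (chr1:7142722-7142971, plus strand) is shown with that element in capitals, because CAT3 alone among the members holds it.
CAT3: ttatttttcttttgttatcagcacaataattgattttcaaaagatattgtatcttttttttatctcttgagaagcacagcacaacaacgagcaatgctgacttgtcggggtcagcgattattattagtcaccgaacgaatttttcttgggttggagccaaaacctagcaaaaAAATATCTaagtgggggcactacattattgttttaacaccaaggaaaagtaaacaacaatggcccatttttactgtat
These letters say nothing of binding.

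For each member, the 2 genes with the nearest pattern over the 4 libraries were found among 12053 genes averaging 5 RPKM or more, by the Euclidean distance of centred log2(RPKM + 1). CSD1 was nearest to AT5G20200 and AT5G11710, at distances of 0.02 and 0.03, and 1052 genes lay within 0.25 of it. CSD2 was nearest to AT1G18060 and AT1G80380 (0.08 and 0.09), with 90 genes within 0.25. FSD1 was nearest to AT3G15630 and AT2G33855 (0.09 and 0.13), with 22 such genes. FSD2 was nearest to PTAC18 (AT2G32180), named for plastid transcriptionally active chromosomes, and to AT4G38860, both at 0.13. FSD3 was nearest to AT5G59080 and AT1G71970, CSD3 to AT1G51430 and SGS3, MSD1 to AT2G30320 and TLP2, and CAT1 to AT2G34460 and AT3G24760. CAT2 was nearest to AT3G16670 and AT5G20670 (0.09 and 0.13), with 26 genes within 0.25. CAT3 had the fewest such genes, 8, led by AT5G05960 and AT5G17700 (0.15 and 0.16). Among the members themselves the closest pair was CSD3 and MSD1 at 0.20, and CSD1 was farthest from any other member, at 1.14.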

How the data were processed

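Leaf RNA sequencing of 4 libraries was used, 1 per group, with groups taken from the sample titles. The authors deposited RPKM values per locus for 3 libraries, per the names of their tables, and the deposited column of WT R3 is headed FPKM (its fragment-based form), per the file headers. All were treated as the same unit. The submitters' processing notes name TopHat, Cufflinks and TAIR10. Versions, settings, strand use and the treatment of multiple matches are not stated in these sources. Of 31319 loci, 30622 matched the RefSeq annotation of TAIR10.1, which gave lengths, names and sequences.

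With normalized values and 1 library per group, no test was made. An approximate depth came from low genes with a single transcript, where the commonest product of value and exon length was taken as 1 fragment, and 95% counting intervals rest on it. They cover counting error only. Shares have approximate Wilson intervals, in which the RPKM share was applied to the estimated fragments of the whole enzyme class. Ratios used a pseudocount of 1 RPKM and a minimum mean of 1 RPKM. The computation was tested on simulated data. Alternatives were pseudocounts of 0.1 and 5, no filter, a filter at 5 RPKM and 3 rescalings. All members are named, and of 6 related lists (60 genes) counts, extremes and a fixed set of genes. The members and lists were chosen with earlier results of these data known. Analyses used Python 3.11.15, pandas 2.3.3, numpy 2.4.6, scipy 1.17.1 and matplotlib 3.10.9.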

Additional observations from a re-analysis of the deposited data

Results flagged for a closer look

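Some members stood on opposite sides of 0 in 2 comparisons of the same kind, each beyond its counting interval. With 1 library per group the difference between the comparisons was not tested. The share of all genes that meet the same rule is not given here, so the opposite signs are not shown to be unusual. For myc2 against WT at R3 and in air, FSD1 had log2 ratios of 0.75 and −0.17 (a difference of 0.92) and CAT2 had 0.25 and −0.58 (0.83). CSD2 had 0.17 and −0.41 (0.58), and CSD1 had −0.17 and 0.31 (−0.48). The median difference of all genes was −0.16, and 23.5% of all genes lay below CSD1. CSD1 in air was only 0.022 with the median of ratios, and CSD2 at R3 only 0.025 with equal sums, both near 0. The signs stayed opposite under all 3 rescalings for these 4 genes. The other alternatives, pseudocounts and filters, cannot turn the sign of such a ratio. CAT3 had −0.83 and 0.07 (−0.90), but its ratio in air turned below 0 under 2 of the 3 rescalings.

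The make-up of catalase transcript went opposite ways between R3 and air. The CAT3 share was lower at R3 by 18.4 percentage points in myc2 (a change of −18.4) and higher by 6.92 in WT, a difference of −25.4. The CAT2 share changed by 17.2 in myc2 and by −7.50 in WT, a difference of 24.7. CAT1 held only 2.04% (myc2 air) to 3.25% (myc2 R3) of the sum, so the CAT2 change largely mirrors that of CAT3. The CAT3 to CAT2 ratio given above is the same observation. Rescaling of libraries does not alter these shares.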

How the results depend on the processing

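Of 78 alternative values for the counts of members and the make-up of the enzyme pools, 65 stayed within 1.5 times the reported count or inside the counting interval and 13 did not. Every alternative share was among the 13, so those that stayed were all counts. The counts between genotypes, at R3 and in air, were 0 in every setting. In WT, 1 member was at least 2-fold higher at R3 (31.3% of all genes). The count was 0 with the median of ratios (17.3%) and 0 with the sum without the 50 highest genes (23.8%), because CSD1 then stood at 0.43 and 0.77. The count lower in WT was 8 with the median of ratios (17.1% of all genes), against 5 (10.1%). For the difference of responses, 2 members were higher with the median of ratios (2.84% of all genes) and 1 lower with equal sums (9.57% of all genes, so near the background), against 0 each. Weighted by annotated exon length, as estimated fragments, the copper/zinc share was 57.1% in myc2 R3 and 58.4% in myc2 air. In WT it was 63.9% at R3 and 62.0% in air. These lengths need not be those behind the deposited values. The order of the myc2 libraries was thereby reversed, from 65.3% at R3 and 65.1% in air. The CAT3 share was then 61.3%, 78.4%, 76.6% and 70.2%, so its order between libraries was the same. No ratio that was 2-fold or more changed sign. Of 50 ratios of single members, 7 changed sign under at least 1 alternative, the largest being 0.11 (FSD3, myc2 over WT in air). CAT2 in WT (−1.01) passed the 2-fold line narrowly, and stood at −0.99 with a pseudocount of 5 and −0.76 with equal sums. The share of higher genes among all genes past 2-fold moved with the median of ratios from 67.3% to 51.9% in myc2 and from 75.5% to 50.3% in WT. No paired analysis was possible because each group has 1 library. FSD2 at R3 is the value most limited by depth.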
